A study of Mus musculus with 15 samples.

Results

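Endothelial cells of the brain were compared with endothelial cells of the liver, on 5 arrays of each, which are 10 of the 15 arrays of a series that also holds 5 of the heart. An array belongs to the comparison by its labelled tissue. Every probe set with a single gene symbol in the array annotation was used, with the probe set of highest mean standing for a gene that had several, which left 19938 genes. Levels are the log2 values that the authors deposited, so a difference of 1 is a 2-fold difference, and all differences are brain minus liver. A mean under 4.93, the 25th percentile of the gene means over the 15 arrays, is called dim. No detection call was used, so a fold against a dim mean is given as a lower bound, computed against 4.93, and differences that start from dim means have no measured order among themselves.

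The brain group came from pools of 6 Tie2-GFP mice per sample, and the liver group from pools of 2 such mice. All mice were on the FVB background, aged 8 to 12 weeks, with males and females in equal parts. In these mice the promoter of Tie2 (Tek), the angiopoietin receptor of endothelial cells, drives green fluorescent protein, and cells bearing that protein were isolated by a sort into lysis buffer. The Tie2 promoter is also known to be active in some blood-forming cells and macrophages, so the sort does not by itself define an endothelial cell. Brain tissue was digested for 60 min at 37 °C in collagenase with DNase, spun through albumin and briefly trypsinised. Liver tissue was digested for 60 min in dispase at room temperature, cleared of the hepatocyte pellet by a slow spin and separated on Percoll. Amplification started from 5 ng of total RNA. Tissue, digestion enzyme, digestion temperature and pool size therefore go together and cannot be told apart. A sample is a pool of mice, so the spread between the 5 samples of a group is the spread between pools, and in such bulk samples fewer cells of a type and less RNA per cell cannot be told apart.

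The brain capillary and the liver sinusoid are at opposite ends of endothelial permeability. Brain capillary cells are joined by continuous tight junctions, form few vesicles and carry nutrients and waste across themselves on membrane transporters, the arrangement called the blood-brain barrier. It is set up and kept by canonical Wnt signalling, in which norrin and Wnt ligands act through Frizzled receptors and beta-catenin on TCF and LEF factors. Liver sinusoidal cells have open fenestrae and no continuous basement membrane, so plasma reaches the hepatocytes directly. They clear macromolecules from blood through scavenger, mannose and Fc receptors that deliver cargo to clathrin-coated pits and lysosomes, and their identity depends on the factor Gata4 in mice.

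Both groups carried the endothelial genes at a high level, with a list mean of 9.91 in brain and 9.75 in liver. Of the 25 measured pan-endothelial genes 9 were called higher and 6 lower in brain, with a median difference of 0.18. By at least 2-fold, 2 were higher and 2 lower. Over all genes 11.1% were higher and 14.0% lower in brain, shares to hold beside the marker counts below. Tek was 11.59, 11.62, 11.53, 11.29 and 11.48 on the brain arrays, against 11.31, 11.44, 11.25, 11.37 and 11.26 on the liver arrays, a difference that did not pass the test (log2 difference 0.18, SE 0.07, adjusted p = 0.0868), though it did without brain replicate 4 (adjusted p = 0.0214). Cdh5, which encodes the endothelial cadherin, was 11.50 ± 0.11 in brain and 11.73 ± 0.26 in liver (mean ± SD, n = 5 each, as throughout), and it did not pass the test either (log2 difference -0.23, adjusted p = 0.175). It passed, as lower in brain, with arrays centred on the pan-endothelial list (adjusted p = 0.00852) and with liver replicates 2 and 5 alone (adjusted p = 0.0314). Pecam1, the adhesion receptor CD31, was 11.27 ± 0.09 in brain and 10.97 ± 0.13 in liver and was called higher in brain (log2 difference 0.30, adjusted p = 0.00888). That call was lost under the same centring (adjusted p = 0.233) and with liver replicates 2 and 5 alone (adjusted p = 0.285). Medians over genes ran from 5.98 to 6.10 over the 10 arrays. Across genes, which are no independent replicates, Pearson correlations were 0.986 to 0.991 between brain arrays, 0.982 to 0.993 between liver arrays, and 0.918 to 0.929 between a brain and a liver array.

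Arrays stood apart within each group on the markers of other cells. Liver replicates 1, 3 and 4 carried high markers of Kupffer cells, the resident macrophages of the sinusoid, and liver replicates 2 and 5 carried less of them. Vsig4, a complement receptor of Kupffer cells, was 4.16, 4.26, 4.02, 4.10 and 3.95 on the brain arrays, against 10.23, 7.57, 10.64, 10.70 and 5.29 on the liver arrays. The mean over the 12 measured Kupffer genes was 5.04 to 5.14 on the brain arrays, against 5.53 to 8.50 on the liver arrays. All 12 were lower in brain with all arrays. An alternative with a liver group of replicates 2 and 5 alone was added after the values were seen. These arrays were picked for their low Kupffer markers, so a smaller difference of those markers there follows from the choice, and with fewer arrays the calls over all genes were fewer as well, at 8.49% higher and 9.10% lower in brain. The same arrays carried the highest hepatocyte list means, given below. Of 16 measured markers of microglia and macrophages, 10 were lower in brain and none higher, against 14.0% and 11.1% of all genes. Several of these 10 are on the Kupffer list as well, so the lists are not separate observations. The microglial marker Tmem119, at 5.64 ± 0.16 in brain and 5.46 ± 0.12 in liver, did not pass the test.

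Brain replicate 1 carried the highest markers of mural cells, the pericytes and smooth muscle that wrap vessels. Acta2, the smooth muscle actin, was 10.08, 8.05, 8.95, 8.53 and 7.05 on the brain arrays, against 5.13, 5.46, 4.88, 4.99 and 5.31 on the liver arrays. Of 14 measured mural markers 7 were higher and 1, Abcc9, was lower in brain (log2 difference -2.61), against 11.1% and 14.0% of all genes. The other 6 did not pass the test, and Acta2 had the largest difference of the list. Without brain replicate 1, 5 were higher. With liver replicates 2 and 5 alone 4 were higher, where 8.49% of all genes were. The list averaged 6.19 to 7.76 on the brain arrays, against 6.00 to 6.13 on the liver arrays. Of 9 measured choroid plexus markers 7 were higher in brain and 1, Aqp1, was lower, with 4 higher when liver replicates 2 and 5 stood alone and 6 without brain replicate 1. Kl and Clic6, markers of the choroid plexus, were highest on brain replicate 1 as well, at 7.26 and 7.37, against 5.24 to 5.80 and 5.50 to 5.90 on the other 4 brain arrays, and all 5 brain arrays were above the liver arrays, at 4.25 to 4.60 and 4.25 to 4.80. Ttr, the thyroid hormone carrier that choroid plexus and hepatocytes secrete, was 12.72, 12.77, 12.58, 12.26 and 12.08 on the brain arrays, against 8.12, 8.16, 7.93, 8.01 and 9.98 on the liver arrays. Both groups carried it, and the brain arrays did not overlap the liver arrays (log2 difference 4.04, SE 0.30, adjusted p = 7.86e-09).

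Alb, serum albumin, was 4.19 ± 0.07 in brain and 9.88 ± 0.37 in liver. Of 17 measured hepatocyte markers 14 were lower in brain, where 14.0% of all genes were, and Ttr was the one higher. The hepatocyte list averaged 5.57 to 5.67 on the brain arrays, against 6.66, 6.74, 6.59, 6.50 and 7.08 on the liver arrays, highest on replicates 5 and 2. Of 10 measured markers of stellate cells, the pericytes of the sinusoid, 3 were lower and 1 higher in brain, against 14.0% and 11.1% of all genes. The stellate list averaged 6.40, 5.74, 5.83, 5.94 and 5.65 on the brain arrays, against 6.20, 5.71, 6.14, 6.28 and 5.55 on the liver arrays, lowest on replicates 5 and 2. Dcn, the matrix proteoglycan decorin of stellate cells and fibroblasts, was 7.97, 5.28, 6.04, 6.16 and 5.35 on the brain arrays, against 9.21, 6.94, 8.04, 8.77 and 5.50 on the liver arrays. It did not pass the test (adjusted p = 0.0821), but was lower in brain with the replicate number as a block (adjusted p = 0.0021) and with arrays centred on the pan-endothelial list (adjusted p = 0.034). It passed too when brain replicate 1 was left out (0.018) or liver replicate 5 (0.00719, both adjusted p). The neuronal list averaged 4.91 to 5.03 on the brain arrays, against 4.61 to 4.96 on the liver arrays. The astrocyte list averaged 5.62 to 6.05 on the brain arrays, against 5.56 to 5.70 on the liver arrays, and the oligodendrocyte list 5.22 to 5.38 on the brain arrays, against 5.20 to 5.45 on the liver arrays. Of 10 measured genes each, 1 neuronal, 2 astrocyte and 0 oligodendrocyte genes were higher in brain, where 11.1% of all genes were. Lower in brain were 0, 1 and 1, where 14.0% of all genes were. The ones lower were Aldh1l1, of astrocytes, and Cnp, of oligodendrocytes, which was 5.98 ± 0.08 in brain and 7.28 ± 0.24 in liver. Gja1, connexin 43, is on the astrocyte list but was high in every tissue, at 9.09 ± 0.27 in brain, 9.36 ± 0.25 in liver and 9.65 ± 0.29 in heart. It was called, as lower in brain, with arrays centred on the pan-endothelial list alone (adjusted p = 0.0341). The part of these cells in the differences below was not tested.

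**Figure D1:**
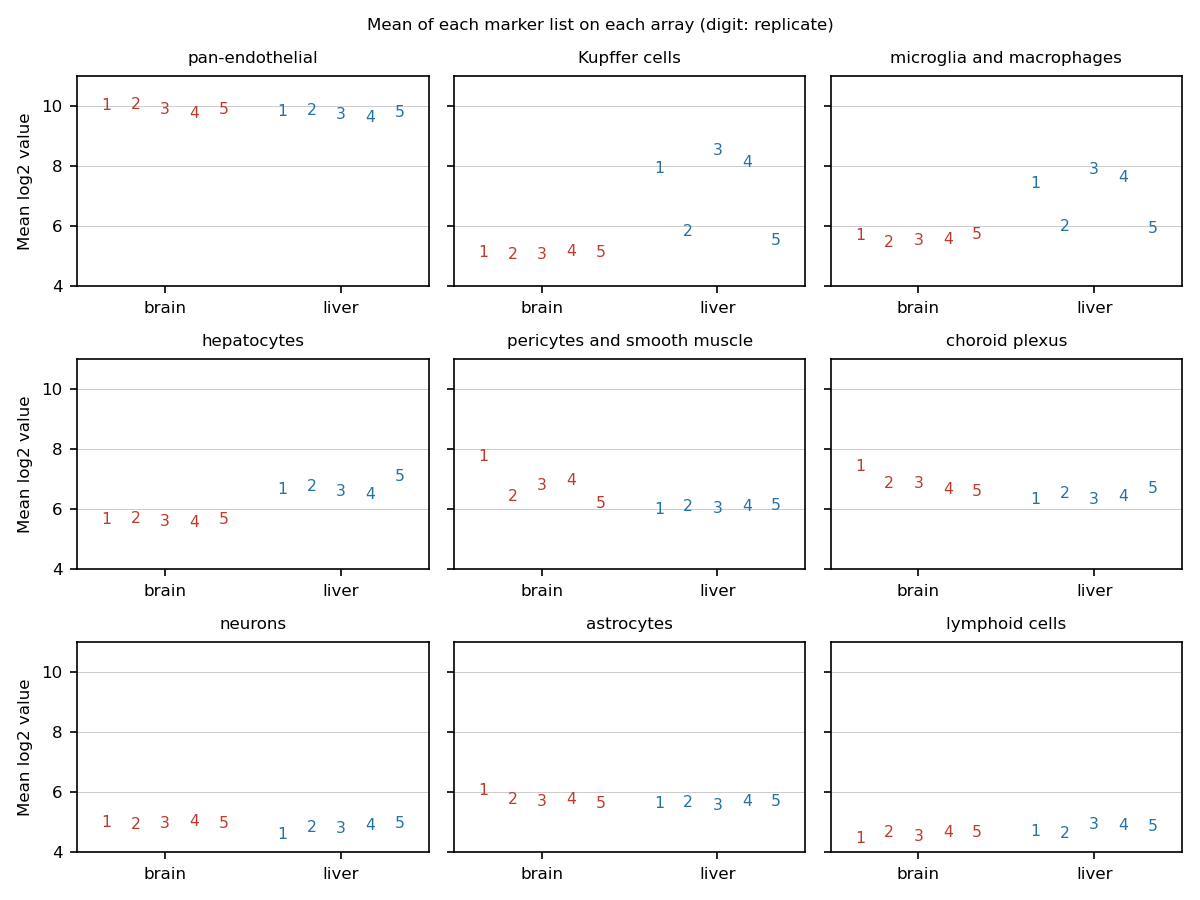
Each panel plots the mean deposited log2 value of a marker list on the 5 brain and the 5 liver arrays, with each digit giving the replicate number of its array. The pan-endothelial list was near 10 throughout. Liver replicates 1, 3 and 4 stood above replicates 2 and 5 on both macrophage lists, which share genes. Brain replicate 1 was the highest brain array on the mural and choroid plexus lists.

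Of 19938 genes, 5003 passed the test at an adjusted p under 0.05, which is 25.1% (limma on all 15 arrays with a mean per tissue, Benjamini-Hochberg adjustment). Of these, 2204 genes (11.1%) were higher and 2799 genes (14.0%) lower in brain. At least 2-fold differences were seen for 696 genes higher (3.49%) and 776 genes lower (3.89%) in brain. Among the genes at least 2-fold apart, 253 of the higher and 251 of the lower ones differed by over 4-fold, and 61 and 49 by over 16-fold. The arrays of the groups did not overlap for 686 of the 696 and for 733 of the 776, where 19.0% of all genes had groups that did not overlap. The split depended on the scaling. Centred on the mean of the 25 measured pan-endothelial genes, the arrays gave 1372 genes higher and 4434 lower. With that centring 23.6% of the calls were higher, against 44.1% with the values as deposited. That scaling moved the median difference of all genes to -0.16, from a median of -0.0022 as deposited.

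The 5 heart arrays give a description of where each gene stood in another capillary bed. Of the 696 genes at least 2-fold higher in brain, the heart mean lay nearer to the brain mean for 334 and nearer to the liver mean for 362. Of the 776 genes at least 2-fold lower in brain, it lay nearer to the brain mean for 621 and nearer to the liver mean for 155.

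**Figure D2:**
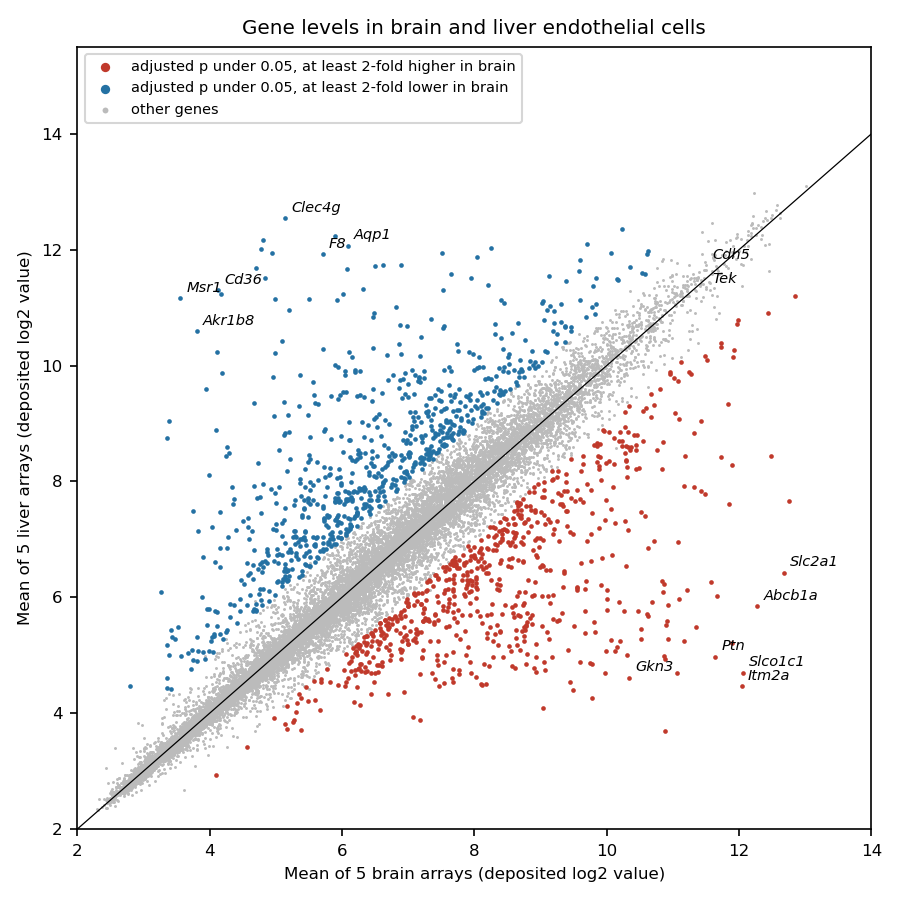
Each point is a gene, with the mean of the 5 brain arrays on the horizontal axis and the mean of the 5 liver arrays on the vertical axis, both in deposited log2 values. Red points are the 696 genes at least 2-fold higher and blue points the 776 at least 2-fold lower in brain at an adjusted p under 0.05, and Tek and Cdh5 lie by the line of equal levels.

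Leading genes were ranked by log2 difference among called genes whose brain and liver arrays did not overlap. Their lack of overlap thus follows from the choice, and a dim mean leaves a gene's rank unmeasured. The 15 largest differences in the brain's favour were 7.58 to 5.64 on the log2 scale, and several were those of membrane transporters. Slco1c1 and Slco1a4 encode organic anion transporting polypeptides, the first a thyroid hormone carrier of the blood-brain barrier. Slco1c1 was 12.09, 12.08, 12.02, 12.02 and 12.10 on the brain arrays, against 4.39, 4.80, 4.68, 4.82 and 4.82 on the liver arrays. The 5 brain arrays lay within a narrow band and every liver array was lower (log2 difference 7.36, SE 0.10, adjusted p = 1.15e-18), at least 141-fold higher in brain. Slco1a4 was 10.88 ± 0.29 in brain and 3.69 ± 0.25 in liver, at least 62.1-fold higher. Slc2a1, the glucose transporter GLUT1, was 12.83, 12.84, 12.51, 12.60 and 12.58 on the brain arrays, against 6.41, 6.60, 6.16, 6.47 and 6.47 on the liver arrays, and it too was above the liver arrays throughout (log2 difference 6.25, SE 0.14, adjusted p = 6.22e-16). Abcb1a, the drug efflux pump P-glycoprotein, was 12.29, 12.21, 12.26, 12.28 and 12.33 on the brain arrays, against 5.61, 6.01, 5.68, 5.92 and 6.01 on the liver arrays, a 86.2-fold difference (adjusted p = 1.60e-18). Mfsd2a carries lysophosphatidylcholine with omega-3 fatty acids and is known to hold down vesicle transport in brain endothelium. It was 10.87 ± 0.41 in brain and 4.99 ± 0.17 in liver, with all 5 brain arrays above all liver arrays. Slc22a8, an organic anion transporter, was 50.2-fold higher, and Tfrc, the transferrin receptor, 60.5-fold.

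The other leading genes were of many kinds. Itm2a, an integral membrane protein gene, was 12.03, 12.27, 11.93, 11.90 and 12.07 on the brain arrays, against 4.00, 4.55, 4.52, 4.75 and 4.49 on the liver arrays (log2 difference 7.58, SE 0.14, adjusted p = 5.00e-17). Car4, a carbonic anhydrase on the cell surface, was 11.90 ± 0.09 in brain and 5.20 ± 0.10 in liver. Ptn encodes the secreted growth factor pleiotrophin, and was 11.64 ± 0.12 in brain and 4.98 ± 0.26 in liver. Sema3c, a secreted guidance ligand, was at least 70.1-fold higher in brain, and Gkn3, known as a marker of brain arteries in mice, at least 42.6-fold. Ccdc141, Prom1 (the stem cell marker CD133) and Pglyrp1, a peptidoglycan recognition protein, were 62.1-fold, 58.0-fold and 49.9-fold higher.

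In the other direction the 15 largest differences were -7.61 to -5.98, and those of several endocytic receptors were among them. Msr1, the class A scavenger receptor, was 3.40, 3.47, 3.55, 3.74 and 3.62 on the brain arrays, against 10.87, 11.20, 11.29, 11.27 and 11.19 on the liver arrays. Every liver array was above every brain array (log2 difference -7.61, SE 0.09, adjusted p = 1.42e-19). Clec4g, a lectin known as LSECtin of the sinusoid, was 4.84, 5.38, 5.40, 5.04 and 5.01 on the brain arrays, against 12.51, 12.63, 12.58, 12.46 and 12.51 on the liver arrays (log2 difference -7.40, SE 0.11, adjusted p = 1.39e-18). Mrc1, the mannose receptor, was 5.19, 4.67, 4.70, 4.97 and 4.53 on the brain arrays, against 12.09, 12.35, 12.08, 12.29 and 12.02 on the liver arrays, at least 151-fold lower in brain (adjusted p = 4.53e-17). Stab2, the hyaluronan receptor stabilin-2, was 5.90 ± 0.11 in brain and 12.24 ± 0.04 in liver. Fcgr2b, the Fc receptor that takes up immune complexes, was 4.99 ± 0.13 in brain and 11.15 ± 0.01 in liver. Cd36, a fatty acid and thrombospondin receptor, was 4.03, 3.84, 4.20, 4.74 and 3.81 on the brain arrays, against 11.13, 11.48, 11.24, 11.24 and 11.41 on the liver arrays, with no overlap (log2 difference -7.17, SE 0.14, adjusted p = 9.18e-17).

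The other leading genes on that side were also of many kinds. F8, coagulation factor VIII, which sinusoidal endothelium is known to make, was 5.84, 6.12, 5.49, 5.56 and 5.52 on the brain arrays, against 11.81, 12.08, 11.83, 12.00 and 11.93 on the liver arrays (log2 difference -6.22, SE 0.13, adjusted p = 1.51e-16). Hpgd, the enzyme that inactivates prostaglandins, was 4.94 ± 0.28 in brain and 11.94 ± 0.04 in liver. Aqp1, a water channel, was 6.09 ± 0.11 in brain and 12.07 ± 0.10 in liver. Dnase1l3, a secreted nuclease, was at least 135-fold lower in brain, Il1a, interleukin 1 alpha, at least 79.3-fold, and Plxnc1, a semaphorin receptor, at least 108-fold. Akr1b8, an aldo-keto reductase, was at least 50.9-fold lower, Adam23, a member of the disintegrin family, at least 96.3-fold, and Tfec, a transcription factor of the MiT family, at least 39.7-fold. With liver replicates 2 and 5 alone, the differences of Msr1, Mrc1 and Il1a were -7.63, -7.37 and -7.13, against -7.61, -7.35 and -7.06 with all 5 liver arrays.

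**Figure D3:**
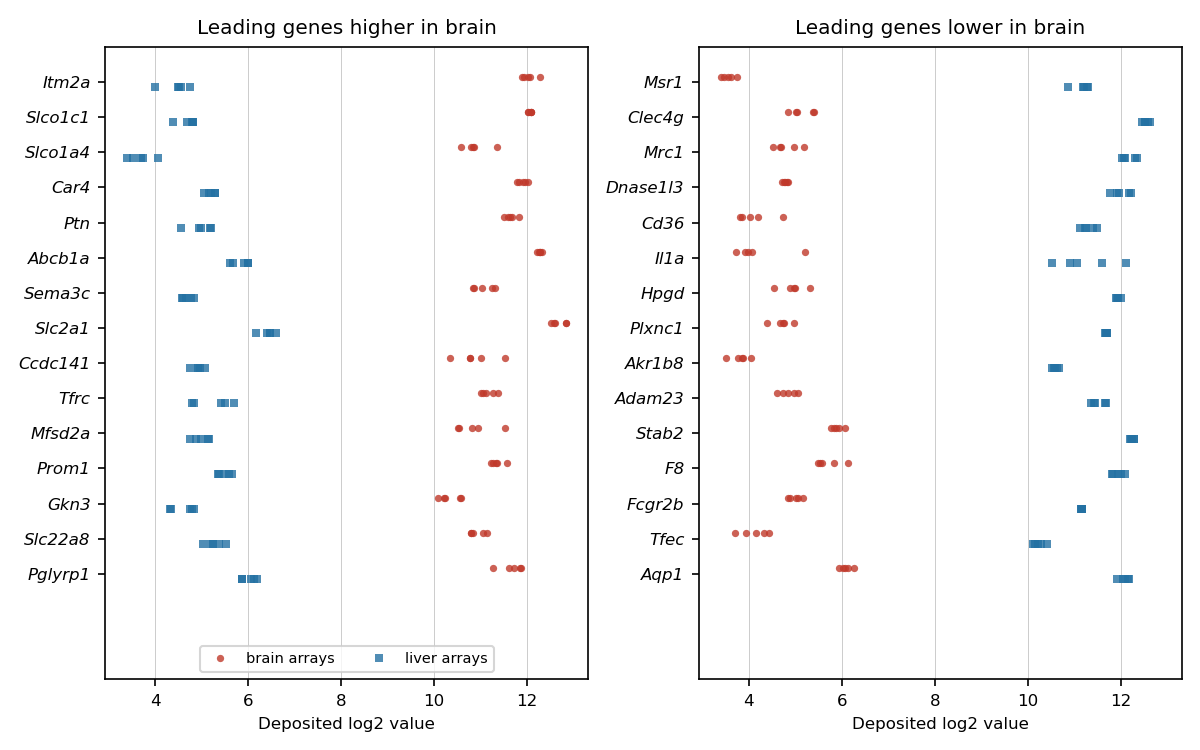
The deposited log2 value of each brain array (red circles) and each liver array (blue squares) is shown for the 15 leading genes higher in brain (left) and the 15 lower in brain (right). No gene shown has a brain array among the liver arrays, which the choice of these genes required, and Il1a spread most within both groups.

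Since beta-catenin acts through TCF and LEF factors, the 250 bases before the RefSeq start of the leading genes were read for the letters CTTTGA, on both strands. These sequences hold them, in capitals, for 3 leading genes higher in brain and 1 lower in brain (RefSeq, GRCm38.p6, 5′ to 3′ on the gene's strand).
Abcb1a, chr5:8566841-8567090, plus strand: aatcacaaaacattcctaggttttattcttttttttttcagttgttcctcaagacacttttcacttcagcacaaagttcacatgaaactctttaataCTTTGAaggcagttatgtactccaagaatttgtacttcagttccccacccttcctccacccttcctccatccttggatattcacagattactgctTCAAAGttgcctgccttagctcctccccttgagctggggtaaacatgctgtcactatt
Ccdc141, chr2:77170636-77170885, minus strand: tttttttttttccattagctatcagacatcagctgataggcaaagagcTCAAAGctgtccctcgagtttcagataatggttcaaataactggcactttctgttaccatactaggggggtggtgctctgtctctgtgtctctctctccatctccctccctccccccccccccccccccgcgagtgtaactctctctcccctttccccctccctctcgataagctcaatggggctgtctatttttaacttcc
Mfsd2a, chr4:122961189-122961438, minus strand: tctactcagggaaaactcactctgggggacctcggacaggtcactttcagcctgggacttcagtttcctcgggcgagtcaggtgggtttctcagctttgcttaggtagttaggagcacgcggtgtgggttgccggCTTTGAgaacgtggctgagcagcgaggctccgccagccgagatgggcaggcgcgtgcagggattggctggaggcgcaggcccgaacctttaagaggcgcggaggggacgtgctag
Mrc1, chr2:14229164-14229413, plus strand: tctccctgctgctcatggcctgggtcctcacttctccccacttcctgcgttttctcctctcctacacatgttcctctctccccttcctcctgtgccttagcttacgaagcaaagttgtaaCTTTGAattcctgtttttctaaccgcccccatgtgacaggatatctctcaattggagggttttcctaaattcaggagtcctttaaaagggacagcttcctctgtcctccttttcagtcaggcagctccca
Abcb1a held the letters 153 and 58 bases before its start, Ccdc141 at 202, Mfsd2a at 115 and Mrc1 at 130. Of the promoters of leading genes, 3 of 17 (15 genes) higher in brain and 1 of 13 (13 genes) lower in brain held them, against 12.5% of 19177 promoters of the genes on the array. The GATA letters AGATAA stood in 3 of 17 and 0 of 13 promoters, against 8.45%, and the ETS letters CCGGAA in 1 of 17 and 1 of 13, against 15.7%. These are counts of letters with no test, and they do not show that a factor binds there.

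The tight junction list, the seal between brain endothelial cells, had 8 of 20 measured members higher and 3 lower in brain, with a median difference of 0.25. Over all genes 11.1% were higher and 14.0% lower, so the 3 lower are near that share. These shares belong beside every list count below, and a count near them is no result about its list. With liver replicates 2 and 5 alone they were 8.49% and 9.10%. Ocln, occludin, was 9.99, 10.37, 9.87, 9.45 and 10.21 on the brain arrays, against 4.47, 4.81, 4.84, 4.71 and 4.61 on the liver arrays (log2 difference 5.29, SE 0.15, adjusted p = 1.26e-14). Marveld2, tricellulin, which seals the corners between cells, was 8.76 ± 0.38 in brain and 5.34 ± 0.11 in liver, and Lsr, a receptor of the same corners, was 8.57 ± 0.30 in brain and 5.84 ± 0.18 in liver. Cgnl1, paracingulin, was 8.11-fold and Pard3, a polarity scaffold, 6.73-fold higher. Cldn5, the main claudin of brain endothelium, was 11.52, 11.60, 11.20, 10.65 and 11.37 on the brain arrays, against 10.12, 9.87, 9.68, 9.78 and 9.84 on the liver arrays. It was 2.66-fold higher in brain (log2 difference 1.41, SE 0.16, adjusted p = 2.02e-06), and the liver arrays carried it at a high level too. Tjp1, the scaffold ZO-1, was 1.59-fold higher in brain. Jam3, a junctional adhesion molecule, was lower (log2 difference -1.04, SE 0.16, adjusted p = 5.56e-05). Cldn1 did not pass the test.

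Adherens and gap junction genes had 9 of 17 higher and 3 lower, with a median of 0.73. Gjc1, connexin 45, was 9.67 ± 0.23 in brain and 6.14 ± 0.23 in liver, and Gja4, connexin 37, lay the other way at 7.87 ± 0.27 in brain and 9.48 ± 0.28 in liver. The junction plaque genes Pkp4 and Jup (plakoglobin) were 6.62-fold and 4.30-fold higher in brain, and Cdh2, N-cadherin, at least 3.21-fold. Cdh5 itself did not pass, as given above.

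Solute carriers bring nutrients across the brain capillary, and most of the list was higher there. Of 39 measured, 25 were higher and 5 lower in brain, with a median of 1.06, against 11.1% and 14.0% of all genes. Beside the leading carriers, Slc1a1, a glutamate transporter, was 10.16 ± 0.21 in brain and 5.15 ± 0.21 in liver. Slc38a3 and Slc38a5, which exchange glutamine and other neutral amino acids, were both higher, Slc38a3 at 10.60 ± 0.26 in brain and 5.71 ± 0.26 in liver and Slc38a5 at 10.06 ± 0.23 in brain and 5.27 ± 0.19 in liver. Slc35f2 was at least 28.3-fold higher. Slc7a5 and Slc3a2, the chains of the large neutral amino acid exchanger, were 5.67-fold and 2.09-fold higher, and Slc16a1, the lactate and ketone transporter MCT1, 21.3-fold. The members lower in brain were Slco2a1, a prostaglandin carrier, Slc29a1 and Slc29a3, nucleoside carriers, Slco3a1 and Slc15a3. Slco2a1 was 6.47 ± 0.36 in brain and 10.84 ± 0.16 in liver.

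ABC transporters did not move one way. Of 21 measured, 8 were higher and 6 lower in brain, and the median of -0.06 turned to 0.14 with liver replicates 2 and 5 alone. Abcg2, the efflux pump BCRP, was 10.76, 10.74, 10.68, 10.93 and 11.10 on the brain arrays, against 8.23, 8.16, 8.13, 8.14 and 8.39 on the liver arrays, so the liver arrays carried it as well (log2 difference 2.63, SE 0.08, adjusted p = 5.09e-14). Abcc4, which exports organic anions, was 5.84-fold higher. Abcb1b, the second mouse gene for P-glycoprotein, was 6.13 ± 0.19 in brain and 4.73 ± 0.37 in liver. Its sequence is close to that of Abcb1a, and how well the probes separate them is not known here. Abcc9, a subunit of potassium channels, was 6.11 ± 0.51 in brain and 8.72 ± 0.26 in liver, and Abcc3, an exporter of organic anions, was 5.15 ± 0.17 in brain and 6.93 ± 0.49 in liver, both lower in brain. Abca5 was 4.84-fold higher.

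Genes for ions, water and carbon dioxide had 16 of 25 higher and 3 lower in brain. With liver replicates 2 and 5 alone, 9 were higher and 2 lower, where 8.49% and 9.10% of all genes were. Aqp1 and Aqp11, both water channels, went opposite ways: Aqp11 was 9.67 ± 0.31 in brain and 5.76 ± 0.14 in liver, and Aqp1 is given above. Car4 and Car8 likewise differed, with Car8, a carbonic anhydrase-related protein without enzyme activity, at 6.02 ± 0.45 in brain and 11.24 ± 0.09 in liver. Kcnj2, an inward rectifier potassium channel that senses neuronal activity in brain capillaries, was 4.72-fold higher.

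Receptors that carry cargo through the cell had 8 of 12 higher and 1 lower, with a median of 1.09. Tfrc was 11.27, 11.06, 11.13, 11.01 and 11.38 on the brain arrays, against 5.51, 4.84, 5.69, 5.41 and 4.79 on the liver arrays, and the lowest brain array was far above the highest liver array (log2 difference 5.92, SE 0.45, adjusted p = 1.04e-08). The shared error takes in the heart arrays, where Tfrc ran from 5.41 to 9.06, and with the brain and liver arrays alone its adjusted p was 1.72e-11. Igf1r, the insulin-like growth factor receptor, was 10.53 ± 0.13 in brain and 7.48 ± 0.14 in liver. Bsg, basigin, which chaperones lactate carriers, was 5.19-fold higher, Lrp8, a receptor of apolipoprotein E and reelin, 9.14-fold and Ptprg, a receptor phosphatase, 9.43-fold. Lepr, the leptin receptor, was the one lower, at 7.20 ± 0.17 in brain and 8.04 ± 0.30 in liver.

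Caveolae and their diaphragms are the vesicle route that brain endothelium is known to keep low. Of 10 measured genes, 5 were higher and 2 lower in brain. Cav1, the caveolar coat protein, was 10.60, 10.59, 10.56, 10.42 and 10.59 on the brain arrays, against 8.63, 8.70, 8.74, 8.83 and 8.61 on the liver arrays. It was higher in every brain array (log2 difference 1.85, SE 0.07, adjusted p = 5.35e-13). Ehd2, which steadies caveolae at the surface, was 3.73-fold higher, Cavin3 2.43-fold and Cavin1 2.03-fold. Plvap, the protein of fenestral and caveolar diaphragms, was 6.57 ± 0.07 in brain and 7.48 ± 0.40 in liver, lower in brain (log2 difference -0.91, adjusted p = 1.64e-04).

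Scavenger, lectin and Fc receptors had 15 of 22 lower and 1 higher in brain, with a median of -1.73. With liver replicates 2 and 5 alone the median was -0.97, with 13 lower and 1 higher. Cd163 and Marco, which Kupffer cells also make, lost their calls there (adjusted p = 0.531 and 0.408). Lyve1, a hyaluronan receptor, was 6.19 ± 0.18 in brain and 9.89 ± 0.53 in liver, and Stab1 was 7.54 ± 0.26 in brain and 10.68 ± 0.17 in liver. The member higher in brain was Ly75, the endocytic receptor DEC-205, at 8.90 ± 0.28 in brain and 4.79 ± 0.11 in liver (log2 difference 4.12, SE 0.11, adjusted p = 6.98e-15).

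Cargo of such receptors passes through clathrin coats and endosomes to lysosomes. Of 34 genes of clathrin coats, endosomes and lysosomes, 22 were lower and 3 higher in brain, with a median of -0.60 (16 lower and a median of -0.41 with liver replicates 2 and 5 alone). Lgmn, the lysosomal protease legumain, was 7.95, 8.10, 8.04, 7.94 and 7.75 on the brain arrays, against 11.65, 11.66, 11.61, 11.41 and 11.22 on the liver arrays (log2 difference -3.55, SE 0.10, adjusted p = 9.48e-15). Ctsb, cathepsin B, was 8.31 ± 0.27 in brain and 10.54 ± 0.29 in liver, Lamp2, a lysosomal membrane protein, 9.39 ± 0.11 in brain and 11.46 ± 0.18 in liver, and Hexa, a lysosomal hexosaminidase, 7.29 ± 0.17 in brain and 9.18 ± 0.10 in liver. Ctsh, cathepsin H, lay the other way at 10.12 ± 0.30 in brain and 7.28 ± 0.62 in liver. The other 2 members higher in brain were Cltb and Ap2b1.

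**Figure D4:**
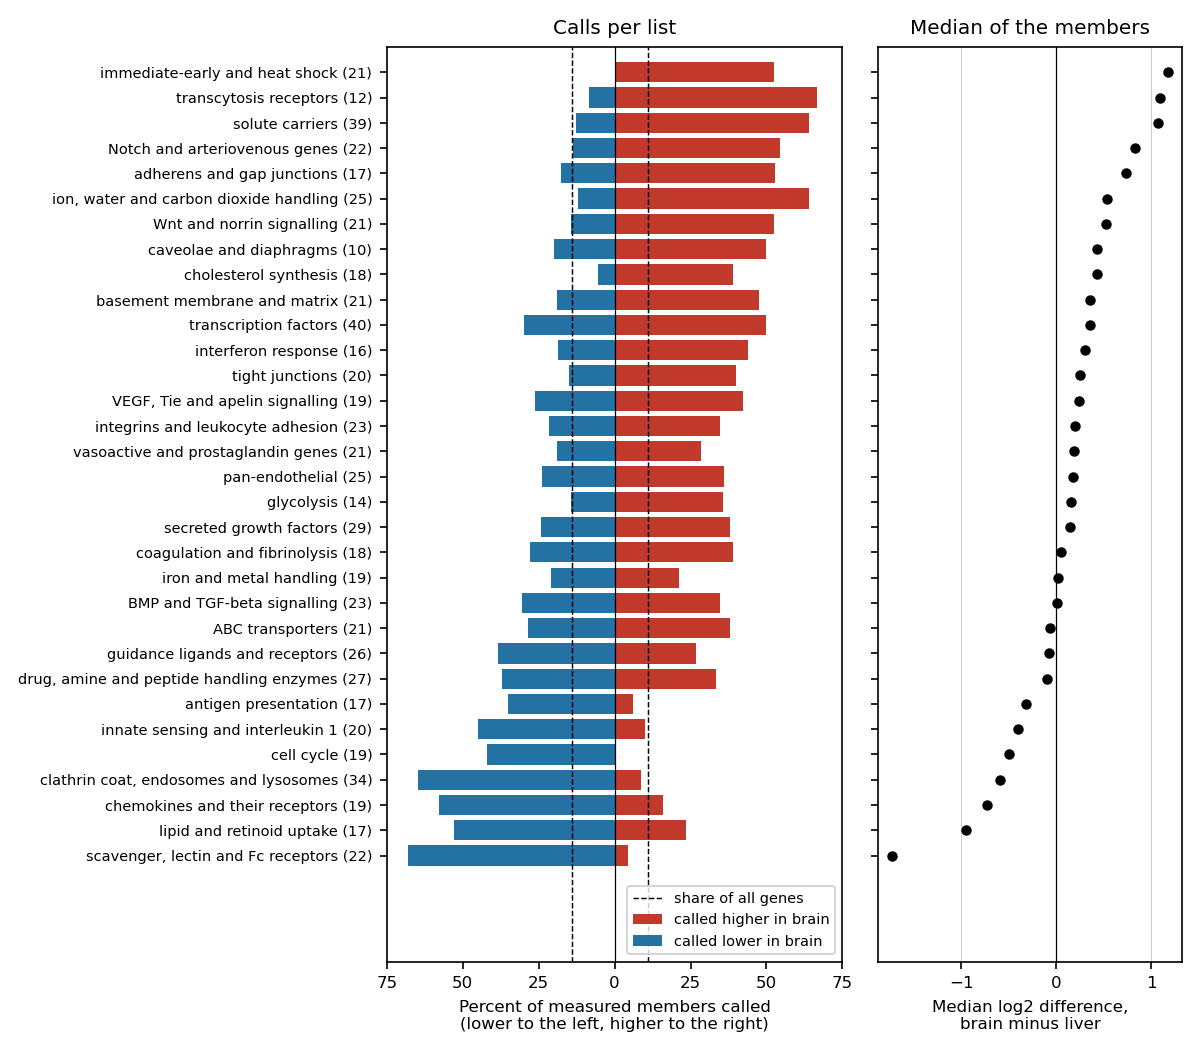
For each of 32 gene lists, with the number of measured members in brackets, the left panel plots the percent of members called higher in brain to the right and lower in brain to the left at an adjusted p under 0.05, with dashed lines at the 11.1% and 14.0% of all genes. The right panel plots the median log2 difference, which was 1.18 for the immediate-early and heat shock list and -1.73 for the scavenger, lectin and Fc receptors.

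Wnt and norrin signalling had 11 of 21 members higher in brain, with a median of 0.52, and 3 lower, a share near the 14.0% of all genes. The nuclear partner of beta-catenin, Lef1, was 10.93, 11.18, 10.84, 10.81 and 10.84 on the brain arrays, against 5.51, 5.68, 5.94, 6.04 and 6.21 on the liver arrays (log2 difference 5.04, SE 0.13, adjusted p = 2.20e-15). Apcdd1, a membrane inhibitor that the pathway itself induces, was 10.63 ± 0.26 in brain and 5.68 ± 0.19 in liver, and Axin2, the usual target gene of the pathway, 9.02 ± 0.52 in brain and 6.56 ± 0.15 in liver. Reck, a co-receptor with Adgra2 for Wnt7 ligands, was 10.52, 10.21, 10.37, 9.85 and 10.02 on the brain arrays, against 5.88, 6.11, 5.77, 5.90 and 5.94 on the liver arrays, with no overlap. Adgra2 (GPR124) was 1.44-fold higher, and Fzd6, a Frizzled receptor, 4.53-fold. Fzd4, the norrin receptor, did not pass the test, at 8.44 ± 0.20 in brain and 8.53 ± 0.06 in liver. The 3 members lower in brain were Tcf7l1, Dkk3 and Lrp6.

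Secreted growth factors went both ways, with 11 of 29 higher and 7 lower in brain. Their median of 0.15 was -0.01 with arrays centred on the pan-endothelial list, the same fall as for every list. Higher in brain beside Ptn were Cxcl12, a chemokine, at 10.27 ± 0.22 in brain and 5.76 ± 0.38 in liver, Edn1, the vasoconstrictor endothelin-1, 14.7-fold, and Tgfb2, 11.8-fold. On the other side, Bmp2, which tells hepatocytes to make hepcidin and so limits iron uptake, was 6.04, 6.05, 6.21, 5.60 and 6.46 on the brain arrays, against 11.54, 11.87, 11.61, 11.61 and 11.71 on the liver arrays (log2 difference -5.60, SE 0.16, adjusted p = 1.76e-14). Hgf, the hepatocyte growth factor, was 4.31, 4.29, 4.01, 4.47 and 4.23 on the brain arrays, against 8.88, 8.21, 9.22, 8.57 and 8.06 on the liver arrays (log2 difference -4.33, SE 0.17, adjusted p = 9.43e-13). Stellate cells are a known source of Hgf, and the liver arrays highest for Dcn (replicates 1, 4 and 3) were also the highest for Hgf, in another order; the part of stellate cells was not tested. Rspo3, the R-spondin that sets Wnt zonation in liver, was 4.35 ± 0.15 in brain and 7.61 ± 0.55 in liver, and Wnt2 was 5.38 ± 0.13 in brain and 7.76 ± 0.64 in liver.

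Among VEGF, Tie and apelin genes 8 of 19 were higher and 5 lower in brain. Aplnr, the apelin receptor, was 8.94 ± 0.27 in brain and 5.20 ± 0.56 in liver, and Flt1, a VEGF receptor that also acts as a decoy, was 12.43 ± 0.07 in brain and 10.91 ± 0.17 in liver. Vegfd and Vegfc, ligands of Flt4, were 7.27-fold and 4.60-fold higher in brain, while Flt4, their receptor, was 7.61 ± 0.18 in brain and 9.98 ± 0.29 in liver. Kdr, the main VEGF receptor, was 10.85 ± 0.19 in brain and 11.83 ± 0.06 in liver, lower in brain (log2 difference -0.98, adjusted p = 1.11e-07). Angpt1, the Tie2 ligand usually made by mural cells, was 5.38 ± 0.67 in brain and 3.71 ± 0.30 in liver.

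BMP and TGF-beta signalling had 8 of 23 higher and 7 lower, with a median of 0.01. With arrays centred on the pan-endothelial list it was -0.15, the same fall as for every list. The type I receptor Acvrl1 (ALK1) was 9.92 ± 0.23 in brain and 8.03 ± 0.20 in liver, and the target gene Id1 9.88 ± 0.24 in brain and 8.22 ± 0.29 in liver. Id2, of the same family, went the other way at 8.20 ± 0.31 in brain and 9.53 ± 0.23 in liver, as did Bmper, a BMP-binding protein, at 5.95 ± 0.13 in brain and 7.31 ± 0.18 in liver.

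Notch and arteriovenous genes had 12 of 22 higher and 3 lower in brain, with a median of 0.82. Genes of arterial cells were among them: Bmx, a kinase of arterial endothelium, was 8.76 ± 0.55 in brain and 5.25 ± 0.27 in liver, and Hey1, a Notch target, 8.88 ± 0.32 in brain and 5.54 ± 0.21 in liver. Mgp, matrix Gla protein, was 11.67, 11.92, 11.59, 11.25 and 11.01 on the brain arrays, against 7.92, 8.38, 6.88, 7.18 and 8.58 on the liver arrays. Every brain array was above every liver array, and its difference was 3.70, against 3.01 with liver replicates 2 and 5 alone. Stmn2, a tubulin-binding protein, was at least 14.5-fold higher. The 3 members lower in brain were Nr2f2, Ephb4 and Dll1, the first 2 known from veins. Nr2f2 (COUP-TFII) was 8.20 ± 0.15 in brain and 9.79 ± 0.17 in liver, and Ephb4, the receptor of ephrin-B2, 7.63 ± 0.13 in brain and 8.93 ± 0.14 in liver.

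Guidance ligands and receptors had 7 of 26 higher and 10 lower. With liver replicates 2 and 5 alone 3 were higher, where 8.49% of all genes were. The semaphorins Sema3c and Sema7a were higher in brain, Sema7a at 10.87 ± 0.31 in brain and 6.23 ± 0.34 in liver, and Plxnc1, the receptor of Sema7a, was 4.68, 4.40, 4.97, 4.73 and 4.76 on the brain arrays, against 11.69, 11.69, 11.69, 11.68 and 11.65 on the liver arrays. Robo1, a Slit receptor, was 5.58 ± 0.09 in brain and 9.49 ± 0.17 in liver, lower in brain, and Epha4, an ephrin receptor, was 9.14 ± 0.14 in brain and 5.90 ± 0.32 in liver, higher in brain.

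Transcription factors named for endothelial identity had 20 of 40 higher and 12 lower in brain. Beside Lef1, Ebf1 was 9.86, 9.92, 9.86, 9.52 and 9.71 on the brain arrays, against 4.15, 4.10, 4.10, 4.65 and 4.28 on the liver arrays (log2 difference 5.52, SE 0.12, adjusted p = 4.34e-16). Foxf1 was 10.68 ± 0.28 in brain and 5.92 ± 0.37 in liver, and its relative Foxf2 8.17 ± 0.54 in brain and 4.50 ± 0.20 in liver. Foxq1, Foxc1 and Sox17, factors known from brain endothelium, were 1.97-fold, 7.33-fold and 2.06-fold higher. On the liver side Gata4, the sinusoidal regulator in mice, was 6.18, 6.38, 6.10, 6.41 and 6.43 on the brain arrays, against 8.92, 9.23, 8.93, 8.84 and 9.25 on the liver arrays. No brain array reached a liver array (log2 difference -2.74, SE 0.10, adjusted p = 5.76e-13). Meis2 was 5.10 ± 0.41 in brain and 10.43 ± 0.09 in liver, Tfec 4.11 ± 0.29 in brain and 10.24 ± 0.11 in liver and Maf, a factor of sinusoidal identity, 6.20 ± 0.29 in brain and 8.35 ± 0.75 in liver.

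Basement membrane genes had 10 of 21 members higher and 4 lower in brain. Fn1, fibronectin, was 11.63, 11.68, 11.58, 11.54 and 11.47 on the brain arrays, against 6.70, 6.21, 6.31, 5.95 and 6.16 on the liver arrays (log2 difference 5.31, SE 0.13, adjusted p = 1.16e-15). Spock2, a proteoglycan, was 11.09 ± 0.39 in brain and 5.98 ± 0.19 in liver. Sparcl1 was 12.76 ± 0.07 in brain and 7.67 ± 1.24 in liver, with a difference of 3.82 with liver replicates 2 and 5 alone. Agrn, agrin, was 3.90-fold higher. Nid1, nidogen, was lower at 7.72 ± 0.34 in brain and 9.13 ± 0.23 in liver. Col4a1, a collagen chain of the capillary basement membrane, was 1.46-fold higher.

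Integrins and leukocyte adhesion genes had 8 of 23 higher and 5 lower. With liver replicates 2 and 5 alone 2 were lower, where 9.10% of all genes were. Itga9 was 6.87 ± 0.31 in brain and 10.70 ± 0.21 in liver, lower in brain, and Itga6, a laminin-binding chain, was 10.23 ± 0.09 in brain and 8.60 ± 0.22 in liver. Vcam1, the leukocyte adhesion receptor, was 10.36, 10.56, 10.40, 9.60 and 10.04 on the brain arrays, against 8.81, 8.88, 8.74, 8.67 and 8.42 on the liver arrays, higher in brain (log2 difference 1.49, SE 0.18, adjusted p = 5.39e-06).

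Coagulation genes went both ways, with 7 of 18 higher and 5 lower, and a median of 0.05. With arrays centred on the pan-endothelial list it was -0.10, the same fall as for every list. Vwf, von Willebrand factor, which carries factor VIII in blood, was 9.71, 10.03, 9.94, 9.39 and 9.83 on the brain arrays, against 7.18, 8.03, 7.31, 6.98 and 7.82 on the liver arrays. It was higher in brain (log2 difference 2.32, SE 0.19, adjusted p = 2.01e-08), against the 74.7-fold lower F8. Plat, the tissue plasminogen activator, was 9.32 ± 0.13 in brain and 5.74 ± 0.49 in liver, Entpd1, an enzyme that degrades ADP, 9.99 ± 0.09 in brain and 7.69 ± 0.11 in liver, and Tfpi, the tissue factor inhibitor, 8.66 ± 0.22 in brain and 10.73 ± 0.12 in liver, the last lower in brain.

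Vasoactive and prostaglandin genes had 6 of 21 higher and 4 lower in brain. Ptgs2, the inducible cyclooxygenase, was 10.14, 10.96, 10.32, 10.45 and 10.74 on the brain arrays, against 5.49, 5.53, 5.30, 5.65 and 5.29 on the liver arrays (log2 difference 5.07, SE 0.19, adjusted p = 3.67e-13), and Hpgd, which degrades its products, was 128-fold lower. Ednrb, an endothelin receptor, was 6.51 ± 0.44 in brain and 9.12 ± 0.23 in liver, lower in brain, where its ligand Edn1 was higher. Npr1, a natriuretic peptide receptor, was 7.44 ± 0.22 in brain and 9.59 ± 0.26 in liver, and Ace, which makes angiotensin II, 8.18 ± 0.27 in brain and 6.42 ± 0.21 in liver.

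Enzymes that handle drugs, amines and peptides had 9 of 27 higher and 10 lower. Maoa, monoamine oxidase A, was 11.06, 10.86, 10.98, 10.62 and 11.04 on the brain arrays, against 6.11, 5.33, 5.83, 5.71 and 5.02 on the liver arrays (log2 difference 5.31, SE 0.15, adjusted p = 1.72e-14), and Maob, its relative, was at least 8.11-fold higher. Enpep and Dpp4, peptidases on the cell surface, were both lower in brain, Enpep at 5.50 ± 0.69 in brain and 11.16 ± 0.06 in liver and Dpp4 at 8.04 ± 0.51 in brain and 11.88 ± 0.14 in liver. Cyp4b1 was 6.05 ± 0.15 in brain and 9.83 ± 0.26 in liver. Akr1b8 is given above.

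Lipid and retinoid uptake had 9 of 17 lower and 4 higher, with a median of -0.96 (-0.56 with liver replicates 2 and 5 alone). Gpihbp1, which docks lipoprotein lipase on capillaries, was 5.88, 6.90, 7.13, 7.28 and 7.26 on the brain arrays, against 11.64, 11.77, 11.80, 11.74 and 11.74 on the liver arrays. Its highest brain array stayed below every liver array (log2 difference -4.85, SE 0.20, adjusted p = 1.42e-12). Fabp4 and Fabp5, fatty acid binding proteins, were 18.3-fold and 17.3-fold lower in brain. Pltp, the phospholipid transfer protein, was 11.85 ± 0.15 in brain and 7.61 ± 0.63 in liver, higher in brain.

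Iron and metal handling had 4 members higher and 4 lower of 19. Cp, the ferroxidase ceruloplasmin, was 10.01 ± 0.09 in brain and 5.79 ± 0.35 in liver, and Slc39a10, a zinc importer, 11.90 ± 0.09 in brain and 8.28 ± 0.10 in liver. Hfe, the iron sensor that partners the transferrin receptor, was lower, at 6.59 ± 0.19 in brain and 8.10 ± 0.16 in liver.

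Glycolysis had 5 of 14 genes higher and 2 lower, the latter near the 14.0% of all genes. Its median of 0.15 was -0.00 with arrays centred on the pan-endothelial list, the same fall as for every list. Ldhb, the lactate dehydrogenase chain that favours pyruvate, had the largest difference at 7.23 ± 0.45 in brain and 9.90 ± 0.13 in liver. Under that centring 1 gene was higher and 3 lower, where 1372 and 4434 of all 19938 genes were. Higher were 2 or 3 without brain replicate 1, 2 or 3 or liver replicate 1, 2 or 5. Cholesterol synthesis had 7 of 18 genes higher and 1 lower. Cyp51, a demethylase of the pathway, was 6.94 ± 0.07 in brain and 5.32 ± 0.28 in liver, and Sqle, squalene epoxidase, 6.80 ± 0.16 in brain and 5.68 ± 0.23 in liver.

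Macrophages make many genes of the immune lists as well, so values with liver replicates 2 and 5 alone stand beside some of them. Antigen presentation had 6 of 17 lower and 1 higher in brain. H2-Aa, a class II chain, was 4.61, 5.16, 5.01, 5.28 and 5.81 on the brain arrays, against 8.35, 6.77, 9.56, 9.41 and 6.84 on the liver arrays. Liver replicates 1, 3 and 4 were the highest, as they were for Vsig4, and the difference of -3.01 was -1.63 with replicates 2 and 5 alone. Cd74, the class II invariant chain, was 5.13 ± 0.14 in brain and 7.33 ± 1.31 in liver, with a difference of -2.21 that was -0.81 with replicates 2 and 5 alone. Cd40, a costimulatory receptor, was the member higher, at 7.53 ± 0.17 in brain and 6.52 ± 0.30 in liver. The part of macrophages in these differences was not tested.

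Innate sensing and interleukin 1 had 9 of 20 lower and 2 higher, with a median of -0.40 that was -0.08 with liver replicates 2 and 5 alone. Il1a was 5.21, 3.73, 4.07, 3.97 and 3.91 on the brain arrays, against 11.60, 12.10, 11.05, 10.91 and 10.51 on the liver arrays (log2 difference -7.06, SE 0.29, adjusted p = 1.88e-12). Casp1, the protease that activates interleukin 1 beta, was 5.12 ± 0.60 in brain and 9.38 ± 0.27 in liver, and its difference of -4.26 was -4.35 with liver replicates 2 and 5 alone. Ly96 and Tlr4, the chains of the endotoxin receptor, were both lower, Ly96 at 6.23 ± 0.39 in brain and 9.47 ± 0.14 in liver and Tlr4 at 5.57 ± 0.27 in brain and 7.93 ± 0.19 in liver. With liver replicates 2 and 5 alone their differences were -3.31 and -2.44, against -3.24 and -2.36 with all 5 liver arrays.

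Chemokines and their receptors had 11 of 19 lower and 3 higher, with 8 lower with liver replicates 2 and 5 alone. Cxcl9, an interferon-induced ligand, was 4.94, 5.52, 4.74, 5.60 and 5.13 on the brain arrays, against 8.83, 10.23, 8.87, 8.62 and 9.15 on the liver arrays (log2 difference -3.96, SE 0.29, adjusted p = 6.45e-09). Cxcl16 was 5.50 ± 0.33 in brain and 8.46 ± 0.05 in liver, with a difference of -3.00 with liver replicates 2 and 5 alone. Ackr3, the decoy receptor of Cxcl12, was 8.75 ± 0.21 in brain and 5.91 ± 0.32 in liver, higher in brain, and Ackr1, a decoy for many chemokines, 5.43 ± 0.33 in brain and 7.54 ± 0.28 in liver, lower in brain. Interferon response genes had 7 of 16 higher and 3 lower. Ifit1 and Ifit2 lay on opposite sides, Ifit1 at 7.68 ± 0.17 in brain and 6.15 ± 0.24 in liver and Ifit2 at 6.35 ± 0.11 in brain and 8.49 ± 0.15 in liver.

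**Figure D5:**
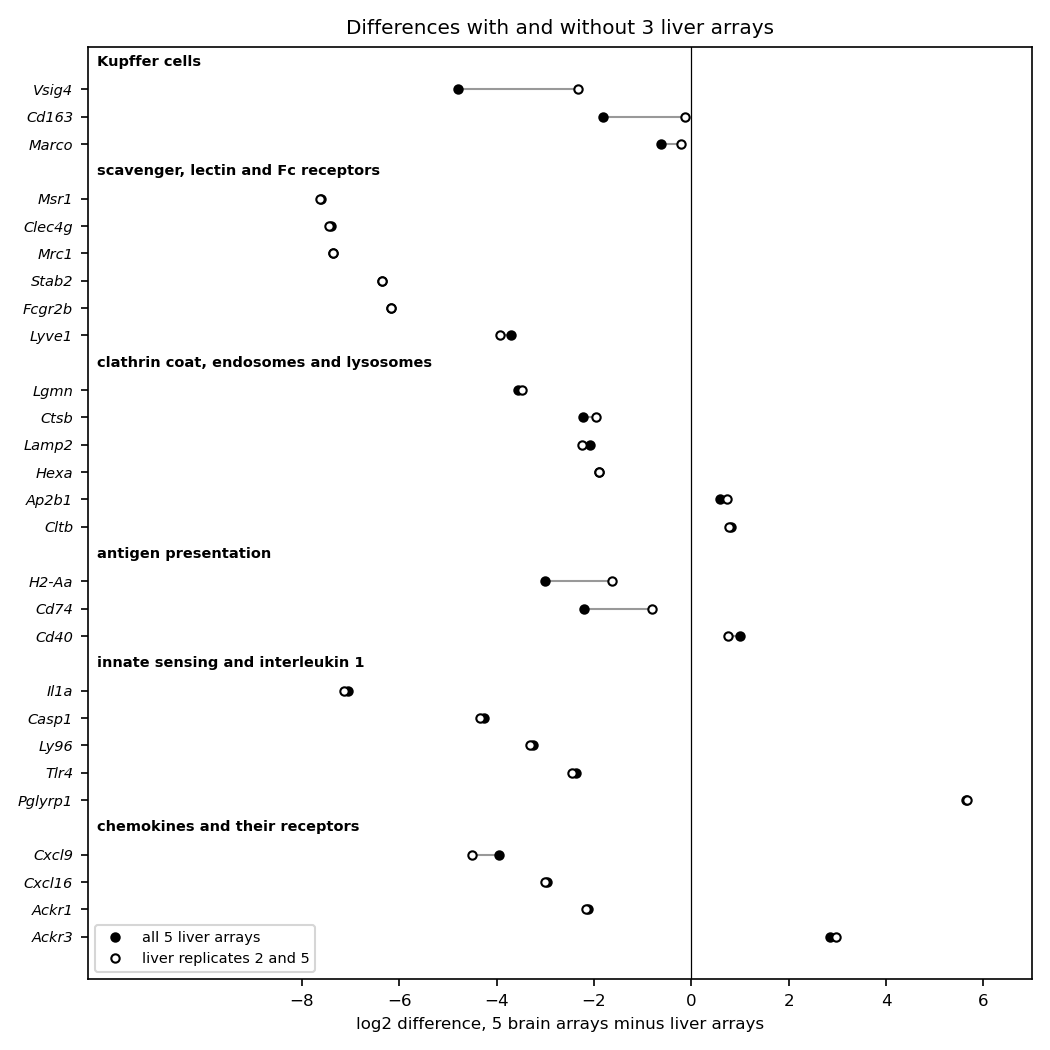
The log2 difference of the 5 brain arrays minus all 5 liver arrays (filled circles) and minus liver replicates 2 and 5 (open circles) is plotted for members of 6 lists. Replicates 2 and 5 were picked for low Kupffer markers, so the Kupffer markers lie nearer to 0 there by choice, and the difference of Cd74 was -0.81 there, against -2.21 with all 5 liver arrays.

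Immediate-early and heat shock genes had 11 of 21 higher and none lower in brain, with a median of 1.18 (7 higher with liver replicates 2 and 5 alone). The brain was digested at 37 °C and the liver at room temperature, and temperature and tissue cannot be told apart here. Hspb1, a small heat shock protein, was 11.41, 11.21, 10.75, 11.17 and 10.89 on the brain arrays, against 6.97, 7.74, 6.53, 6.75 and 6.83 on the liver arrays (log2 difference 4.12, SE 0.20, adjusted p = 2.61e-11). Hspa1a, an inducible Hsp70, was 11.04 ± 0.18 in brain and 9.19 ± 0.83 in liver. Nr4a1 and Nr4a2, early response factors, were both higher, Nr4a1 at 8.46 ± 0.68 in brain and 5.87 ± 0.22 in liver and Nr4a2 at 9.49 ± 0.23 in brain and 7.09 ± 0.30 in liver. Fos, Jun and Egr1, which answer dissociation in many tissues, did not pass the test, with Fos at 8.18 ± 0.24 in brain and 7.65 ± 0.86 in liver. Jun was higher in brain with the replicate number as a block (adjusted p = 0.027) and with dim genes left out (adjusted p = 0.0395). Without liver replicate 2, Jun and Egr1 were higher in brain (adjusted p = 0.00129 and 0.00515).

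Cell cycle genes had 8 of 19 lower and 0 higher in brain, with a median of -0.50. Top2a, topoisomerase II alpha, was 4.44, 4.74, 4.37, 4.51 and 4.74 on the brain arrays, against 5.73, 5.42, 6.82, 5.99 and 5.40 on the liver arrays. With liver replicates 2 and 5 alone 2 of 19 members were lower, where 9.10% of all genes were, against 14.0% with all 5 liver arrays. Top2a no longer passed in that smaller set (difference -0.85, adjusted p = 0.109), nor did Mki67 (adjusted p = 0.141). Cdk1 was 5.44 ± 0.36 in brain and 6.58 ± 0.43 in liver, and Mki67, the proliferation marker, 5.03 ± 0.21 in brain and 5.84 ± 0.37 in liver.

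Some of the largest differences fell on genes of none of these lists. Higher in brain were Degs2, a sphingolipid desaturase, at 10.90 ± 0.30 in brain and 5.53 ± 0.34 in liver, Itih5 at 10.30 ± 0.23 in brain and 5.00 ± 0.20 in liver, and Palmd at 11.21 ± 0.15 in brain and 6.12 ± 0.45 in liver. Ddc, the decarboxylase that makes dopamine from L-DOPA, was 10.20, 9.82, 10.12, 10.28 and 10.60 on the brain arrays, against 5.20, 5.24, 5.32, 5.09 and 5.40 on the liver arrays (log2 difference 4.96, SE 0.13, adjusted p = 2.30e-15), and it stands beside Maoa as another amine enzyme higher in brain. Atp10a, a phospholipid flippase, was 33.3-fold higher, Ndnf, a secreted neurotrophic factor, at least 17.4-fold, Rassf9 at least 23.7-fold, and the small nucleolar RNA Snord35b 37.8-fold.

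Lower in brain were Oit3 at 5.20 ± 0.17 in brain and 10.96 ± 0.21 in liver, and Gpr182, an atypical chemokine receptor known from sinusoids, at 6.02, 6.51, 7.14, 6.93 and 6.49 on the brain arrays, against 11.77, 12.12, 11.52, 11.52 and 11.73 on the liver arrays (log2 difference -5.12, SE 0.17, adjusted p = 1.15e-13). Il13ra2, the decoy receptor of interleukin 13, was 3.39 ± 0.10 in brain and 9.04 ± 0.37 in liver. Cd55, the complement decay accelerating factor, was 5.92 ± 0.16 in brain and 11.13 ± 0.34 in liver, and Ehd3, an endosomal recycling protein, 6.31 ± 0.14 in brain and 11.32 ± 0.11 in liver. Slc9a9, an endosomal sodium/proton exchanger, was at least 25.4-fold lower, and Fam167b 37.6-fold. Fabp1, the liver fatty acid binding protein, was 3.44, 3.30, 3.41, 3.22 and 3.39 on the brain arrays, against 8.77, 9.22, 9.18, 8.65 and 7.94 on the liver arrays (log2 difference -5.40, SE 0.17, adjusted p = 6.59e-14). Hepatocytes are its best known source. Fabp1 was lowest on liver replicate 5, which had the highest hepatocyte list mean (7.08), and the part of hepatocytes was not tested.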

How the data were processed

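RNA of sorted endothelial cells was measured on Affymetrix arrays, and the authors deposited log2 values that were made with RMA in Affymetrix Power Tools, per the submitters' processing notes. RMA evens out the arrays' distributions, so a shift shared by all genes is not seen. No scanner intensities were used. Probe sets were named from the array annotation: of 35556, 21789 had 1 gene symbol, 1621 several and 12146 no name here, and 21698 of the 21789 matched RefSeq (GRCm38.p6) with no symbol changed. The named probe sets gave 19938 genes, 999 of them with more than 1 probe set.

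A mean per tissue was fitted with limma 3.58.1 (R 4.3.3) to all 15 arrays, since 3 tissues then share 1 estimate of the spread (12 residual degrees of freedom), and the brain minus liver contrast was tested with Benjamini-Hochberg adjustment over 19938 genes at 0.05. The number of arrays limits the precision. The fit was tested on simulated data. No array was dropped from it.

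The comparison was proposed and 49 gene lists (811 genes measured of 875) chosen with earlier results of these data known. Lists are described by counts and medians, with no test over a list. Genes named were the 15 largest differences each way, taken among called genes whose brain and liver arrays did not overlap. Also named were up to 5 members of a list with its largest differences, with fewer or none for some lists. Tek, Pecam1, Cdh5, Ttr and up to 8 leading genes each way on no list were named too. Named outside that rule, after their values were seen, were Abcb1b, Abcc3, Adgra2, Ap2b1, Cd163, Cldn1, Cldn5, Cltb, Col4a1, Dkk3, Dll1, Egr1, Ephb4, Fos, Foxc1, Foxf2, Foxq1, Fzd4, Gata4, Gja1, Jam3, Jun, Lepr, Lrp6, Ly75, Maf, Maob, Marco, Nr2f2, Rspo3, Slc15a3, Slc16a1, Slc1a1, Slc29a1, Slc29a3, Slc35f2, Slc38a3, Slc38a5, Slc3a2, Slc7a5, Slco2a1, Slco3a1, Sox17, Stab1, Tcf7l1, Tgfb2, Tjp1, Tmem119 and Wnt2.

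Alternatives were the 10 arrays alone, a replicate block, the mean of a gene's probe sets, no dim genes (mean under the 25th percentile, log2 4.93), arrays centred on their median or on the pan-endothelial list, an intensity trend with a robust prior, and each brain and liver array left out. Folds against a mean under log2 4.93 were computed against that level and are given as lower bounds, since no detection calls were used. The liver group of replicates 2 and 5 was added later. The labels give no array batch or date.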

Additional observations from a re-analysis of the deposited data

Results flagged for a closer look

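Each gene named and each list mean was examined within the 5 brain and within the 5 liver arrays for 1 array far from the other 4 (gap over range above 0.71, Dixon's critical value for 5). Of 516 such checks 34 stood apart, where about 1 in 20, or 25.8, is the number chance gives.

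On brain replicate 1, Clic6 (7.37) and Kl (7.26), the choroid plexus markers, stood above the other brain arrays, as did Il1a (5.21), Jup (9.27), Hspa1a (11.35) and Egr1 (8.98). The list means for BMP and TGF-beta signalling (8.33) and for ion, water and carbon dioxide handling (7.31) were also highest there. Aqp11 (9.13) and Gpihbp1 (5.88) were lowest on the same array. Its mural markers were high too, and their part in these values was not tested.

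On the other brain arrays, Ap2b1 was low on replicate 2 (9.46), and Cd74 (5.36) and Rspo3 (4.61) were high on replicate 3. Replicate 4 was low for Cav1 (10.42), Kdr (10.52) and Nr2f2 (7.95). Replicate 5 was low for Flt4 (7.30) and high for Bmper (6.18).

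Among the liver arrays, Ttr stood high on replicate 5 (9.98), with Slc38a5 (5.60) and the Wnt and norrin list mean (7.23). Replicate 1 was low for Msr1 (10.87), Cyp51 (4.83), Kl (4.25) and Plat (4.88), and high for Slc7a5 (9.55). Replicate 2 was high for Cd55 (11.73), Fabp4 (11.23), Maf (9.68), Oit3 (11.33) and Slc29a3 (7.45), and low for Cdh2 (4.56). Replicate 3 was low for Rassf9 (3.66) and had the highest cell cycle list mean (6.56).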

How the results depend on the processing

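Of the 4 counts of called genes, those of all genes higher and lower in brain moved by over 1.5 times under some settings. With arrays centred on the pan-endothelial list, 1372 genes were higher and 4434 lower in brain, against 2204 and 2799 as deposited, and all 1372 and all 2799 of the matching calls were shared between the settings. The counts at least 2-fold apart were 584 and 971 there, and centring on the median gave 1948 higher and 3120 lower. Leaving out 1 array at a time gave 2017 to 2138 genes higher and 2478 to 2871 lower in brain, with 680 to 723 at least 2-fold higher and 748 to 823 at least 2-fold lower. With liver replicates 2 and 5 alone, a setting with 3 fewer arrays, 1814 genes were lower and 1693 higher in brain.

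The labels do not say that a replicate number marks a shared batch, so the main fit has no pairing. Same-numbered deviations from the tissue means correlated at 0.050 to 0.17, and 9 of 10 arrays correlated best with their own number, a hint from the data and not from the design. With the replicate number as a block, 2352 genes were higher and 2930 lower in brain. The block changed the call of 2 named genes, to Dcn lower in brain (adjusted p = 0.0021) and Jun higher (adjusted p = 0.027), and Jun also passed with dim genes left out (adjusted p = 0.0395). Among 218 named genes, none changed direction under any setting run. Most were named for large differences on these same arrays, and 208 were called in the main fit, so that follows largely from the choice. The calls of 5 (Pecam1, Cd163, Marco, Top2a and Mki67) were lost with liver replicates 2 and 5 alone and that of Pecam1 with pan-endothelial centring. Of the lists, that centring gave 12 of 17 antigen presentation genes lower, against 6, and 5 of 17 adherens and gap junction genes lower, against 3. Over all genes it gave 4434 of 19938 lower, against 2799. The centring takes away a list mean that was higher in brain (9.91, against 9.75 in liver), so it lowers every difference by the same amount. The cause of the other shifts was not tested. Amplified RNA from sorted cells and 5 arrays a tissue set the precision, and values near log2 4 to 5 lie at the dim end of the scale.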

Other observations

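Probe sets without a single gene symbol, 13767 in all, stand outside the counts above. In a separate fit of the same form, run on all 35556 probe sets and adjusted over them, 233 were higher and 228 lower in brain. Both counts are at an adjusted p under 0.05 and at least 2-fold. Log2 differences of the 13767 ran from -7.61 to 6.66. Differences over 16-fold were seen for 9 higher and 15 lower.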
